A study of Arabidopsis thaliana with 18 samples.

Results

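A set of 54 genes of *Arabidopsis thaliana* was almost silent in wild-type seedlings and gave reads in every library of the *fpa* mutant. The set was picked from the 33602 genes of the count table by their levels in CPM (counts per 1000000 counts of the library). A gene entered where its mean was below 1 CPM in WT, its mean in *fpa* was at least 1 CPM and at least 4 times that in WT, its lowest *fpa* library lay above its highest WT library, and its mean in *bdrs* was below 0.5 times that in *fpa*. The levels in *fpa*, *bdrs* and WT therefore chose the members, and for these groups they are given below as a description with no test. Of 15345 genes below 1 CPM in WT, 7339 had at least 1 read in the 18 libraries, and the 54 genes came from these.

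The study profiled messenger RNA of whole seedlings of the Col-0 ecotype, 8 days old, raised at 21 °C in a daily cycle of 16 h light and 8 h darkness after 4 days of stratification at 4 °C. The groups were *fpa* (a single mutant carrying *fpa-7*), *bdrs* (a triple mutant of *bdr1*, *bdr2* and *bdr3*), the single mutants *bdr1* (SALK_142108C), *bdr2* (CS852350) and *bdr3* (SALK_059905), and WT, with 3 libraries each. Each mutation was represented by 1 line, so an effect of the line and an effect of the gene cannot be told apart. The study's methods speak of biological replicates for WT and *bdrs*, and the sources used here do not say for any group whether the libraries came from separate cultures. The p-values therefore measure the spread between these libraries, which may be technical. As these were bulk samples, fewer cells of a type and less RNA per cell cannot be told apart either.

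FPA is an RNA-binding protein that promotes cleavage and polyadenylation of RNA at chosen sites, the step that ends a messenger RNA at its 3′ end. It is best known from the autonomous pathway of flowering, in which it keeps the floral repressor *FLC* low. The BORDER proteins (BDR1, BDR2 and BDR3) bind near the borders of genes and are putative negative factors of transcript elongation. Plant genes often stand head to tail on the same strand, an arrangement called tandem, in which the 3′ end of the upstream gene lies close to the start of the downstream gene.

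Library totals ranged from 11566600 to 21084793 counts, so that 1 read was worth between 0.0474 and 0.0865 CPM. *FPA* itself gave 24, 22.1 and 22.4 CPM in *fpa*, against 32, 48 and 42.3 CPM in WT, and *FLC* averaged 74.9 ± 23.2 CPM in *fpa* against 5.67 ± 0.987 CPM in WT (SD, n = 3 each). High *FLC* was not particular to *fpa*, as the *bdrs* libraries gave 51.9, 37.1 and 40.5 CPM. In *bdrs*, *BDR1* averaged 3.58 CPM against 29.9 CPM in WT and *BDR2* averaged 7.97 CPM against 15.8 CPM in WT. *BDR3* gave 6.63, 9.18 and 6.75 CPM in *bdrs* and 9.09, 4.96 and 5.95 CPM in *bdr3*, against 7.56, 8.78 and 8.3 CPM in WT. Both mutants overlapped with WT, so reads of *BDR3* do not check the *bdr3* mutation in either. The libraries richest in ribosomal RNA were *fpa* replicate 3 (1.78% of counts), *bdrs* replicate 1 (1.65%) and *bdr1* replicate 3 (1.01%). *fpa* replicate 3 was the lowest *fpa* library for 38 of the 54 genes and for 61.9% of all tested genes. The part of ribosomal RNA in these values was not tested.

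Summed over the 54 genes, the level was 182, 140 and 115 CPM in *fpa*, 18.9, 22.2 and 20.3 CPM in *bdrs*, and 12.3, 14.3 and 14.7 CPM in WT. All *fpa* libraries were far above all others, and the *bdrs* libraries lay slightly above the WT libraries, as the plot of summed levels shows. The median gene had 1.91 CPM in *fpa*, 0.268 CPM in *bdrs* and 0.172 CPM in WT, and the median ratio of *fpa* to WT was 10.9 over the 51 genes with a read in WT. Most of the set stayed at low levels even in *fpa*, where 29 genes were under 2 CPM and 4 reached 5 CPM. The fit over all genes (edgeR quasi-likelihood test, Benjamini-Hochberg adjusted p under 0.05) called 1.31% of 20143 tested genes higher in *fpa*, and in 9.8% of tested genes all *fpa* libraries lay above all WT libraries. All 54 genes passed the filter on low counts, in which their *fpa* libraries were counted, and all 54 were called higher, which the rule made likely and from which nothing is read.

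**Figure D1:**
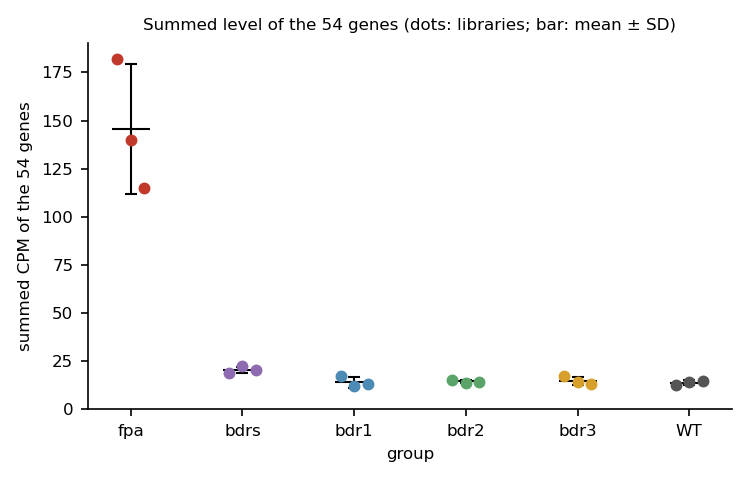
Summed level of the 54 genes in each library (y axis, CPM) by group (x axis), with dots for libraries and black bars for the mean ± SD of 3 libraries. The *fpa* libraries sit between 115 and 182 CPM, and every other library lies at or below 22.2 CPM.

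Of the 54 genes, 50 were annotated as protein coding, 2 as pseudogenes and 2 as transcribed pseudogenes. They were spread over the genome, with 16 on chromosome 1, 4 on chromosome 2, 14 on chromosome 3, 5 on chromosome 4 and 15 on chromosome 5. No member was next to another, and the closest pair, *AT3G18900* and *AT3G19085*, stood 28 genes apart. Their annotated roles were mixed, and 27 of the 54 could be placed in the 6 kinds described next.

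The most abundant member was *AT5G24240*, which encodes a phosphatidylinositol 4-kinase gamma-like protein and lies on chromosome 5 from 8230916 to 8234150 on the minus strand (coordinates here are of the TAIR10.1 assembly). It gave 23.7, 17.8 and 18.1 CPM in *fpa*, 0.377, 0.599 and 0.88 CPM in *bdrs*, and 0.645, 0.57 and 0.903 CPM in WT. The next was *AT5G63390*, an O-fucosyltransferase family gene, with 12.7, 11.1 and 10.6 CPM in *fpa*, 0.301, 0.799 and 0.528 CPM in *bdrs*, and 0.879, 0.684 and 0.79 CPM in WT. For both genes the *bdrs* and WT libraries overlapped while the *fpa* libraries stood apart. Together they made up 21.5% of the summed level in *fpa*. The third was *AT3G18900*, annotated as a ternary complex factor MIP1 leucine-zipper protein, with 8.26, 5.75 and 3.11 CPM in *fpa* against 0.352, 0.855 and 0.508 CPM in WT.

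Genes with known work in flowers, pollen or meiosis formed a first kind, with 6 members whose mean levels added up to 10.8 CPM in *fpa*, 1.14 CPM in *bdrs* and 0.438 CPM in WT. *CNGC16*, a cyclic nucleotide-gated channel known from pollen, had 5.44, 3.29 and 2.51 CPM in *fpa*, against 1, 1 and 0 reads in the WT libraries. *SYN1*, the meiotic cohesin subunit of the Rec8 family, had 2.75, 1.8 and 0.778 CPM in *fpa* against 0.117, 0.285 and 0 CPM in WT. *AtSPO22*, which takes part in meiotic crossing over, had 2.11, 1.5 and 0.605 CPM in *fpa* against 0.0586, 0.171 and 0.452 CPM in WT. Its lowest *fpa* library was only 0.154 CPM above its highest WT library, the narrowest gap of the set. *MYB120*, a transcription factor of pollen tubes, had 2.56, 1.8 and 0.778 CPM in *fpa* against 0.0586, 0.057 and 0 CPM in WT. *PMEI1*, an inhibitor of pectin methylesterase, and *LRE* (LORELEI), a membrane-anchored protein of the synergid cells that receive the pollen tube, had no read in any WT library. Set against a floor of 3 counts over the WT group, *PMEI1* was at least 20.5-fold and *LRE* at least 17.7-fold higher in *fpa*. *AT1G09157*, a putative transmembrane protein of the DUF679 family, was the third member with no WT read and was at least 25.4-fold higher in *fpa*.

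Markers of the tissues in which these genes are known were examined beside them. Of 7 pollen marker genes, none had enough reads to be tested, and their summed level ranged from 0.12 to 0.32 CPM in *fpa* against 0.282 to 0.469 CPM in WT. Of 11 floral organ identity genes, 2 were tested, and *SEP3* was called lower in *fpa* by edgeR (0.503 ± 0.361 CPM against 2.01 ± 0.423 CPM in WT, SD, n = 3 each). Over all tested genes, 3.12% were called lower. Among 8 tapetum and anther genes, 4 had no read in any library, and the only tested gene, *LAP6*, averaged 4.11 CPM in *fpa* against 5.28 CPM in WT (edgeR adjusted p = 0.428).

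Receptors and kinases of the cell surface formed the largest kind, with 7 members. *RLP35*, a receptor-like protein with leucine-rich repeats, had 4.29, 3.17 and 2.77 CPM in *fpa*, 0.979, 1.6 and 1.94 CPM in *bdrs*, and 0.703, 0.741 and 0.677 CPM in WT. Here the *bdrs* libraries lay between those of *fpa* and WT without overlap. The lectin-type kinase gene *AT5G42120* behaved otherwise, with 3.65, 3.29 and 1.73 CPM in *fpa*, 0.0753, 0.2 and 0.0587 CPM in *bdrs*, 0.0538, 0.142 and 0 CPM in *bdr1*, and 0.352, 0.57 and 0.395 CPM in WT. Its *bdrs* and *bdr1* libraries all lay below its WT libraries. The remaining members of this kind were the wall-associated kinase gene *WAK4*, the cysteine-rich receptor-like kinase gene *CRK15*, the LysM-type kinase gene *LYK2* and the leucine-rich repeat kinase genes *AT5G59670* and *AT3G47090*, at mean levels of 1.05 to 1.59 CPM in *fpa*. Of 9 tested marker genes of salicylic acid defence, a pathway in which some such receptors act, 0 were called in *fpa* by edgeR (0 at an unadjusted p under 0.05) and 0 by DESeq2. Over all tested genes, edgeR called 1.31% higher and 3.12% lower. The gene of the salicylic acid list with the smallest p, *WRKY70*, averaged 1.54 CPM in *fpa* against 0.842 CPM in WT (edgeR adjusted p = 0.25).

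Genes for F-box or FBD-like proteins, a large plant family of which many members mark other proteins for destruction, gave 4 members. *AT1G32375* had 5, 4.61 and 3.89 CPM in *fpa* against 0.176, 0.228 and 0.113 CPM in WT, and *AT3G59270* had 5.64, 4.25 and 3.2 CPM in *fpa* against 0.352, 0.456 and 0.226 CPM in WT. *AT3G14710* was the member nearest to the limit set on *bdrs*, where its mean of 0.819 CPM was 49.3% of its mean in *fpa*. The 3 transporter genes were *CHX14*, a cation/proton exchanger with 3.52, 2.63 and 1.12 CPM in *fpa* against 0.176, 0.114 and 0.0565 CPM in WT, the purine permease gene *PUP15* and *UMAMIT7*, of the family of amino acid exporters. *PUP15* had 2.24, 2.27 and 1.38 CPM in *fpa* against 0, 0 and 0.113 CPM in WT.

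Enzymes of small molecules gave 5 members, among them the methyl esterase gene *MES18* with 4.55, 4.25 and 2.68 CPM in *fpa* against 0.293, 0.399 and 0.169 CPM in WT, the aldehyde oxidase gene *AO4*, the beta-amylase gene *BAM5* and the sugar kinase gene *AT1G06020*. The RNA-related genes *AT5G18180*, of the Gar1/Naf1 family of H/ACA ribonucleoproteins, and *AT3G15750*, of the Yae1 family, were among the members with the highest WT levels, at means of 0.612 and 0.799 CPM. *AT3G15750* was the member closest below the limit of 1 CPM in WT, and the gene closest above it among those that met all other conditions was the plastid gene *ATCG00210* at 1.12 CPM. At the limit of 1 CPM in *fpa*, *UMAMIT7* was inside at 1.01 CPM and *FTSH6* outside at 0.982 CPM. At the limit of 4-fold, *AT1G73066* was inside at 4.1-fold and *AT1G79890* outside at 3.99-fold. At the limit on *bdrs*, *CHX21* was outside at 54.5%.

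Other members had almost no WT reads at all. The transcripts of *AT4G24652* gave 1.99, 2.21 and 1.82 CPM in *fpa* against 0, 1 and 0 reads in WT, and those of *AT5G61180*, a putative endonuclease or glycosyl hydrolase gene, gave 1.99, 1.44 and 2.51 CPM in *fpa* against 0, 1 and 0 reads in WT. *AT3G17980*, a gene for a calcium-dependent lipid-binding protein, had 3.07, 1.98 and 1.3 CPM in *fpa*, 0.829, 0.649 and 0.528 CPM in *bdrs* and 0, 0.057 and 0.113 CPM in WT. The remaining members named for their level in *fpa* had means between 2.41 and 4.26 CPM there: *AT1G55800*, *AT5G33395*, *AT3G24780*, *AT5G03435*, *AT1G73066* and the disease resistance gene *AT3G46730*.

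**Figure D2:**
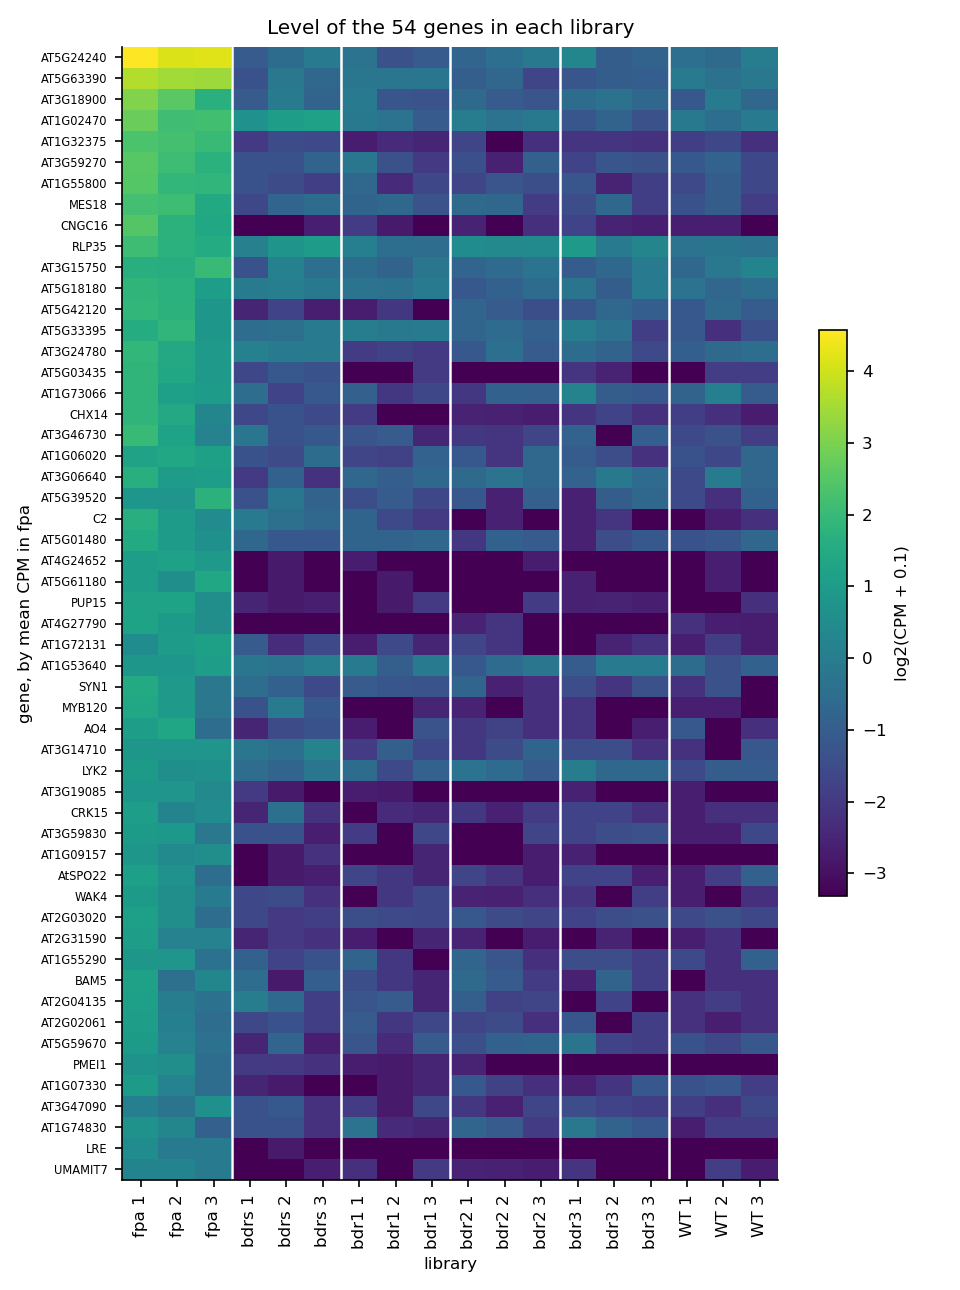
Level of each of the 54 genes (rows, sorted by mean level in *fpa*) in each of the 18 libraries (columns, grouped as *fpa*, *bdrs*, *bdr1*, *bdr2*, *bdr3* and WT), as log2(CPM + 0.1) on the colour scale. The *fpa* columns are bright for all 54 genes, and intermediate *bdrs* columns stand out for *AT1G02470* (1.51, 2 and 2.17 CPM) and *RLP35*.

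The members were next examined in *bdrs* and in the single *bdr* mutants. The rule capped the level in *bdrs* but did not fix where below that cap a gene lay, and the median member had 14% of its *fpa* level there. The mean in *bdrs* was above that in WT for 37 of 54 genes, and for 17 all *bdrs* libraries lay above all WT libraries, against 9.25% of all near-silent genes with a read. WT helped to choose the members, which favours low WT values, so these counts are a description. The same count was 5 genes in *bdr1* (2.06% of near-silent genes with a read), 4 in *bdr2* (2.85%) and 4 in *bdr3* (3.76%). Only *AT1G02470*, at a mean of 1.89 CPM, and *RLP35*, at 1.5 CPM, reached 1 CPM in *bdrs*, and *RLP35* was the only member to do so in *bdr2* (1.27 CPM) and *bdr3* (1.25 CPM). None did so in *bdr1*.

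Libraries of the single mutants had no part in the choice. The summed level of the 54 genes was 13.9 ± 2.8 CPM in *bdr1*, 14.4 ± 0.687 CPM in *bdr2* and 14.7 ± 2.01 CPM in *bdr3*, beside 13.8 ± 1.3 CPM in WT (SD, n = 3 each). For 52 of 54 genes every single-mutant library was below every *fpa* library, with *AT5G59670* and *AT1G74830* as exceptions. The choice of members by high *fpa* levels favours this count. The share over all genes was not counted, so nothing is read from it.

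The place of the members in the genome was examined next. The nearest gene 5′ of the start lay on the same strand for 39 of 54 members (72.2%), against 51.8% of all nuclear genes of the table and 54.9% of near-silent protein-coding genes with a read. Over these tandem pairs the median distance was 106 bp (quartiles 13.5 and 434 bp, overlaps counted as negative), against 702 bp over all tandem nuclear genes. In 7 pairs the genes overlapped, in 12 they were 1 to 100 bp apart, and in 38 the distance was at most 1000 bp. A tandem neighbour within 1000 bp that reached 5 CPM in WT stood upstream of 29 members (53.7%), against 14.8% of near-silent protein-coding genes with a read. On the downstream side 70.4% of members had their neighbour on the same strand, against 50.7% of all nuclear genes, but the median distance was 694 bp, close to the 669 bp over all tandem nuclear genes. These shares are descriptions with no test, and they rest on the gene models of TAIR10.1.

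Read the other way, 854 near-silent protein-coding genes with a read had such a tandem neighbour at 5 CPM or more within 1000 bp, and 27 of them (3.16%) were in the set. With a tandem neighbour under 5 CPM within 1000 bp the share was 7 of 950 (0.737%), and with a tandem neighbour farther than 1000 bp it was 0 of 1206. With a neighbour on the opposite strand it was 2 of 509 (0.393%) within 1000 bp at 5 CPM or more, 5 of 630 (0.794%) within 1000 bp under 5 CPM, and 3 of 1246 (0.241%) beyond 1000 bp. Where the neighbour within 1000 bp was no gene of the count table, 6 of 391 (1.53%) were in the set. A set chosen by the same conditions with *bdrs* and *fpa* exchanged held 48 genes, and 57.4% of the 47 with a placed neighbour were tandem, 34% within 1000 bp and 14.9% with a neighbour at 5 CPM or more, near the values of near-silent genes in general. The difference between the sets was not tested.

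**Figure D3:**
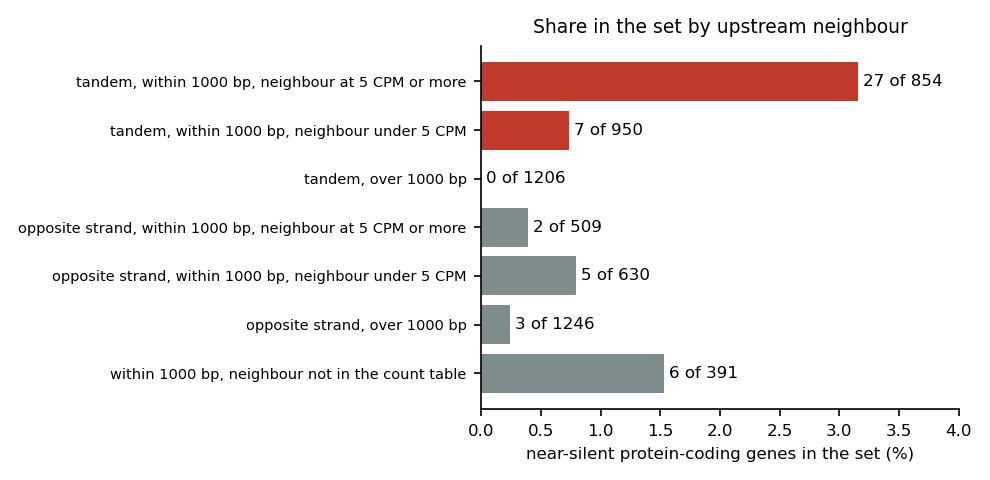
Share of near-silent protein-coding genes with a read that belong to the set (x axis, percent) by the strand, distance and WT level of the upstream neighbour (rows), with the count of members and of genes beside each bar. The highest share, 3.16%, is that of genes with a tandem neighbour at 5 CPM or more within 1000 bp.

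The stretches between some of these pairs are given here because they show how little DNA separates a gene active in WT from a member that is not. They are printed 5′ to 3′ on the strand of both genes, from the base after the annotated end of the upstream gene to the base before the annotated start of the member, from the RefSeq sequence of TAIR10.1. Capitals mark TATAAA, the core of the TATA box found before many gene starts, and AATAAA, the classical polyadenylation signal, on the printed strand.
ADK1 to AT5G63390, chr5:25392685-25392919, minus strand: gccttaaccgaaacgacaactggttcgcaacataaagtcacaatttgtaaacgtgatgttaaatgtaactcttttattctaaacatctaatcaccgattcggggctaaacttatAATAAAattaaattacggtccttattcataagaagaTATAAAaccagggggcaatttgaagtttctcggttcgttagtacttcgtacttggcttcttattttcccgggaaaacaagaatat
mtLPD1 to PMEI1, chr1:17716809-17716892, minus strand: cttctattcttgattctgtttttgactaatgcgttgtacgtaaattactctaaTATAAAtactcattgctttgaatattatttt
AT3G11070 to RLP35, chr3:3470234-3470303, plus strand: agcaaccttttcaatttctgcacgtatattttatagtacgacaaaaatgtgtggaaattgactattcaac
Mfl1 to AT5G42120, chr5:16835170-16835232, minus strand: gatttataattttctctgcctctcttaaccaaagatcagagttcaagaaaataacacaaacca
AT5G18190 to AT5G18180, chr5:6009762-6009811, minus strand: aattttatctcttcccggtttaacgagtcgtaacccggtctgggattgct
AT1G06960 to CHX14, chr1:2137839-2137870, plus strand: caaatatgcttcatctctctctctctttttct
ACBP2 to AT4G27790, chr4:13849935-13849948, plus strand: gcaaaaacggttga
AT5G48385 to AtSPO22, chr5:19612008-19612019, plus strand: tcttattctctc
Among the 32 tandem gaps of 1 bp or more, 9 held TATAAA and 7 held AATAAA, and of the 18 gaps of up to 300 bp, 4 and 1 did. These are matches of letters and not sites, and short gaps leave little room for either.

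Because so many starts lay close behind another gene, the 250 bases before the start reached into the upstream gene for 30 of 54 members. In that window, searched on both strands, TATAAA occurred in 20 of 54 members (37%), against 47.7% of 26711 protein-coding genes of the table. The G-box CACGTG occurred in 1 member (1.85%, against 6.58%). The W-box letters TTGACC or TTGACT occurred in 16 (29.6%, against 28.5%), the TGA factor core TGACG in 11 (20.4%, against 18.6%) and the RY core CATGCA in 5 (9.26%, against 8.51%). AATAAA, searched on the strand of the gene and added after the other motifs had been counted, occurred in 18 (33.3%, against 40%).

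The levels of the upstream neighbours were not used by the rule and could be tested. Of 40 upstream neighbours with enough reads, 9 were called lower in *fpa* than in WT and 1 was called higher (edgeR, adjusted p under 0.05). Over all tested genes, 3.12% were called lower and 1.31% higher. The median log2 fold change of the 40 neighbours was -0.29, against 0.01 over all tested genes, and 33 of 40 were negative. In 17 of 40, all *fpa* libraries lay below all WT libraries, as they did in 14.5% of all tested genes. Of the 29 tandem neighbours within 1000 bp at 5 CPM or more, 8 (27.6%) were called lower and 0 higher, with a median log2 fold change of -0.34 (higher at an unadjusted p under 0.05 in 1 gene, and in 0 by DESeq2). Neighbours of the same kind beside other near-silent protein-coding genes numbered 827, of which 29 (3.51%) were called lower and 7 (0.846%) higher, with a median of -0.01. The count of 9 lower neighbours became 5 without WT replicate 2 and 5 without *fpa* replicate 2, and it ranged from 5 to 8 when each library of these groups was left out.

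The clearest case was *ADK1*, which encodes adenylate kinase 1 and ends 235 bp before *AT5G63390*. It gave 17.3, 18.5 and 18.4 CPM in *fpa*, 83.2, 92.3 and 91.5 CPM in *bdrs*, and 79.8, 93.3 and 96.8 CPM in WT, so its *fpa* level was 20.1% of that in WT (log2 fold change -2.25 ± 0.16 SE, edgeR adjusted p = 2.64e-08). The *fpa* libraries did not overlap with the others, and the *bdrs* and WT libraries did. Per length of exon, *AT5G63390* reached 37% of the level of *ADK1* in *fpa* against 0.508% in WT (RPKM, CPM per kilobase of exon). The rule required the member itself to rise, so this change in share was favoured by the choice of members.

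The other neighbours that fell did so by less, to between 54.6% and 63.9% of the WT level. *AT5G18190*, a protein kinase family gene 50 bp before *AT5G18180*, had 29.9, 27.1 and 22.7 CPM in *fpa* against 38.7, 54.4 and 45.8 CPM in WT (log2 fold change -0.75 ± 0.14 SE). *AT3G11070*, an outer membrane OMP85 family gene 70 bp before *RLP35*, had 11, 7.96 and 7.09 CPM in *fpa* against 15.5, 16.6 and 14.4 CPM in WT (-0.78 ± 0.16 SE). *RPL4*, a ribosomal protein gene 390 bp before *AT1G07330*, had 190, 198 and 171 CPM in *fpa* against 291, 323 and 285 CPM in WT. In each of these pairs the *fpa* libraries lay below all WT libraries in the upstream gene, which was named because it was called lower. The rule required the *fpa* libraries to lie above all WT libraries in the member, so nothing is read from the opposite directions. *ACLB-1*, a subunit of ATP-citrate lyase that makes cytosolic acetyl-CoA, stood before *AT3G06640*, and the bromodomain gene *AT5G55040* stood before *MYB120*. They averaged 106 ± 11.6 CPM in *fpa* against 165 ± 12 CPM in WT, and 12.1 ± 4.02 CPM in *fpa* against 22.1 ± 4.47 CPM in WT (SD, n = 3 each).

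The last 3 of the 9 overlapped their member, and reads in the shared bases cannot be assigned with certainty. *AT1G02475* overlapped *AT1G02470* by 23 bp, and both are annotated as polyketide cyclases. The study kept only reads with a unique alignment, so reads that matched both genes equally would not have been counted. *AT5G01470* overlapped *AT5G01480* by 45 bp. *AT5G05480* lay on the opposite strand and overlapped *SYN1* by 65 bp. Called under each alternative that was run were *ADK1*, *AT5G18190* and *AT3G11070*, while the other 6 missed the threshold under at least 1 of them. The single neighbour called higher was *CRK16*, a receptor-like kinase gene of the same family as *CRK15* and 198 bp before it, with 1.41, 1.32 and 0.692 CPM in *fpa* against 0.469, 0.513 and 0.395 CPM in WT (log2 fold change 1.37 ± 0.37 SE), and DESeq2 did not call it.

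**Figure D4:**
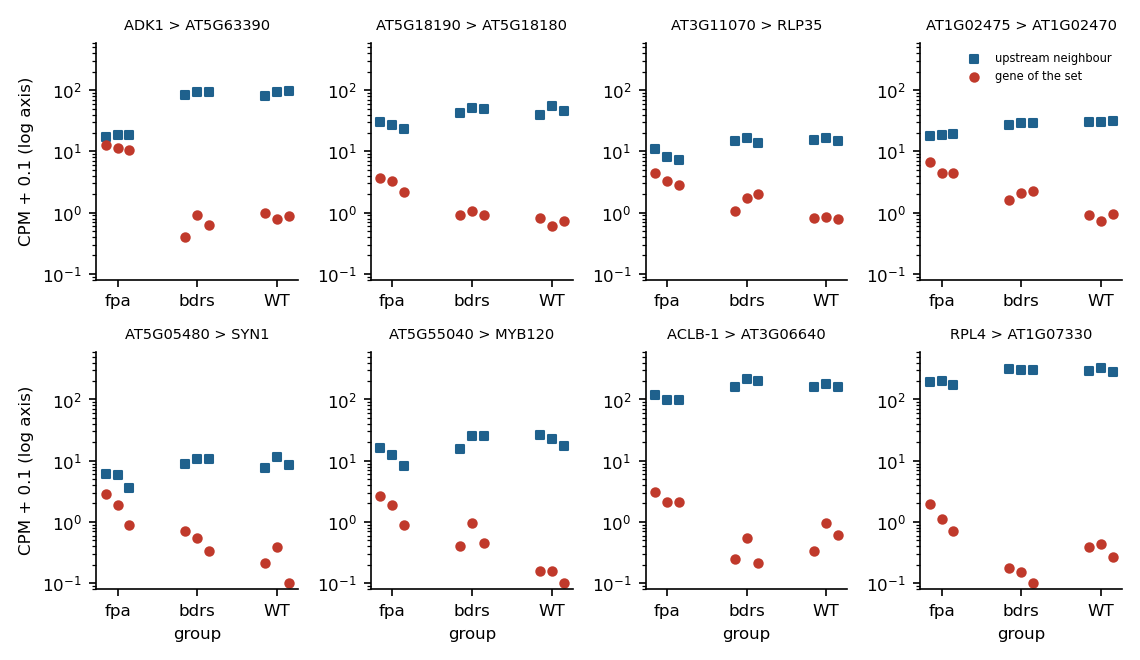
Levels of 8 members (red circles) and of the upstream neighbour called lower in *fpa* (blue squares) in the *fpa*, *bdrs* and WT libraries (x axis), as CPM + 0.1 on a log axis. The remaining pair of the 9, *AT5G01470* and *AT5G01480*, is not shown. Its neighbour was also called lower in *bdrs* (log2 fold change -1.23). Each gene is to be compared with itself across groups. In *fpa* each neighbour lies below its WT libraries, with *ADK1* at 17.3 to 18.5 CPM in *fpa* against 79.8 to 96.8 CPM in WT. Each member lies above its WT libraries because the rule required it, and the neighbours shown were picked as called lower.

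For many members the upstream neighbour was not called. *AT5G24260*, a prolyl oligopeptidase gene 533 bp before the most abundant member *AT5G24240*, averaged 18.1 ± 3.7 CPM in *fpa* against 21.3 ± 3.24 CPM in WT (SD, n = 3 each). Its log2 fold change was -0.18 ± 0.14 SE (edgeR adjusted p = 0.499). *mtLPD1*, a mitochondrial lipoamide dehydrogenase gene 84 bp before *PMEI1*, averaged 265 ± 38 CPM in *fpa* against 352 ± 29.5 CPM in WT (SD, n = 3 each), at an edgeR adjusted p of 0.129. *TXR1* (before *AT3G59270*), *Mfl1* (before *AT5G42120*), *AT1G06960* (before *CHX14*), *AT1G06010* (before *AT1G06020*) and *AT5G03440* (before *AT5G03435*) were not called either, with log2 fold changes from -0.53 to 0.18. For the 29 pairs with a neighbour at 5 CPM or more, the member's RPKM was a median of 18.6% of the neighbour's in *fpa*, against 0.508% in WT. The rule required each member to gain in *fpa*, which favours a higher share there, so nothing is read from that rise. The member stayed below its neighbour in 28 of the 29 in *fpa*, and *AT5G24240*, at 136%, was the exception. The neighbour's mean RPKM was lower in *fpa* in 26 pairs, and in 20 it was lower by more than the member had gained. Over the 29 pairs, the size of the neighbour's loss hardly followed that of the member's gain (Spearman correlation 0.11). The log2 fold change was negative for 86.2% of these neighbours, against 51.1% of tested genes at 5 CPM or more in WT.

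In *bdrs* the same 40 upstream neighbours had 1 call lower and 1 higher against WT, where 2.78% of all tested genes were called lower and 1.89% higher, and their median log2 fold change was -0.06. The lower one was *AT5G01470* (-1.23) and the higher one *AT3G14700* (1.83), which stood 82 bp before *AT3G14710*. Both contrasts used the same WT libraries, and the difference between *fpa* and *bdrs* was not tested. Downstream of the members, 33 neighbours could be tested in *fpa*, with a median log2 fold change of 0.02. Of these, 0 were called lower and 1 higher, beside 3.12% and 1.31% of all tested genes. At an unadjusted edgeR p under 0.05 the 33 neighbours gave 4 lower and 5 higher, beside 11.6% and 9.39% of all tested genes. DESeq2, like edgeR with the replicate block, called 1 of them lower and 2 higher. The difference between upstream and downstream neighbours was not tested. The one called higher by edgeR was *ATGLR1.2*, a glutamate receptor gene 682 bp after *AtSPO22*, with 3.71, 2.57 and 1.9 CPM in *fpa* against 0.879, 1.08 and 1.24 CPM in WT.

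**Figure D5:**
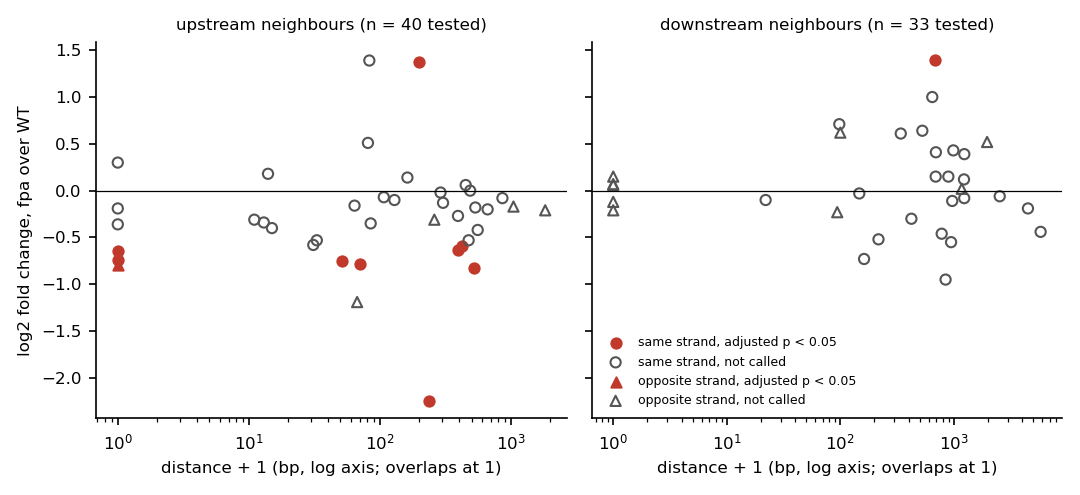
Log2 fold change of *fpa* over WT (y axis) for the tested neighbours of the 54 genes by distance from the member (x axis, log scale, overlapping genes at 1), for 40 upstream neighbours (left) and 33 downstream neighbours (right). Filled red points passed an adjusted p of 0.05 in edgeR. Upstream 9 of these lie below 0 and 1 above, and downstream 1 lies above 0. Over all tested genes, 3.12% were called lower and 1.31% higher.

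Lists of genes from the pathways that could bear on silent genes were examined in the same fit. None of their genes belonged to the set. Of 27 genes of DNA methylation and silencing, 0 were called in *fpa* by edgeR or DESeq2 and 6 were lower at an unadjusted p under 0.05, with a median log2 fold change of -0.22, and the smallest p was that of *NRPE1*, the largest subunit of RNA polymerase V, at 7.16 CPM in *fpa* against 11.8 CPM in WT (edgeR adjusted p = 0.079). Of 10 tested Polycomb group genes 0 were called by either tool and 1 was higher at an unadjusted p under 0.05. This was *MSI1*, which had the smallest p of its list (41.1 CPM in *fpa* against 33.5 CPM in WT, edgeR adjusted p = 0.115). Of 19 genes of RNA 3′ end formation, 4 were lower at an unadjusted p under 0.05, *FPA* among them, and the median log2 fold change was -0.35. The only call was *FPA* itself (log2 fold change -0.77 ± 0.17 SE, edgeR adjusted p = 0.01). Over all tested genes, 11.6% were lower and 9.39% higher at an unadjusted edgeR p under 0.05, with a median log2 fold change of 0.01. At the adjusted threshold edgeR called 3.12% lower and 1.31% higher. Of 6 loci known to be silenced in wild-type seedlings, 1 could be tested, and this was *QQS*, a small gene kept silent by DNA methylation in many plants, at 10.2 ± 1.58 CPM in *fpa* against 1.31 ± 0.504 CPM in WT (SD, n = 3 each). *FWA* and *SDC*, classical targets of DNA methylation, averaged 0.13 and 0.084 CPM in *fpa* against 0.211 and 0.0566 CPM in WT.

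Markers of other tissues were counted in the same way. Of 7 tested seed genes, 6 were called lower in *fpa* by edgeR (against 3.12% of all tested genes), with a median log2 fold change of -2.69, and the cruciferin gene *CRA1* averaged 27.4 ± 11.4 CPM in *fpa* against 290 ± 61 CPM in WT (SD, n = 3 each). The summed level of the list ranged from 34.2 to 52.9 CPM in *fpa* against 333 to 525 CPM in WT. *CRA1*, *OLEO1*, *OLEO2* and *ABI3* were low in *bdrs* too, at means of 74.7, 7.73, 22.7 and 2.04 CPM. Their WT means were 290, 27.1, 84.6 and 6.84 CPM. *SESA1*, *SESA2* and *SESA3* averaged 1.43, 3.83 and 2.33 CPM in *bdrs* against 1.41, 4.93 and 1.41 CPM in WT. Of 9 tested root genes 1 was called higher (*EXPA7*, an expansin of root hairs) and 1 lower (*SCR*, a regulator of the endodermis). Over all tested genes, edgeR called 1.31% higher and 3.12% lower. Of 6 tested leaf and shoot genes 0 were called by either tool and 1 was higher at an unadjusted p under 0.05. The smallest p there was that of *STM* (6.37 CPM in *fpa* against 4.57 CPM in WT, edgeR adjusted p = 0.094). The part of these marker genes in the levels of the 54 genes was not tested.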

How the data were processed

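Strand-specific messenger RNA libraries were aligned by the authors with STAR 2.5.2b, handled with SAMtools 1.3.1 and counted per gene of TAIR10 with featureCounts, per the labels and the submitters' processing notes. The deposited table used here gives raw counts, with no normalization by the authors. A second deposited table of normalized values was not used. How the counting treated strand is not given in the sources used here. Overlapping genes are therefore uncertain.

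Levels are CPM on column sums of the raw counts. The test was the quasi-likelihood F test of edgeR 4.0.16 (with TMM and filterByExpr) in R 4.3.3 on all 18 libraries in 1 fit with 12 residual degrees of freedom, and p-values were Benjamini-Hochberg adjusted over 20143 genes. The procedure was tested on simulated data. DESeq2 1.42.0, other scalings, no filter, 2-group fits, a replicate block and leaving out libraries were alternatives. Libraries of *fpa* and WT with the same replicate number deviated together from their group means (correlations 0.253, 0.112 and 0.426), so the numbers may pair them. Libraries with unlike numbers were not compared in this way. The calls and the shares over all genes come from the fit without the replicate block and leave out any such pairing. The block was an alternative, and its counts are given below. Tests between the single mutants are not reported for the members, because their high *fpa* libraries were counted in the filter on low counts.

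Neighbours were taken from RefSeq's TAIR10.1 annotation, whose gene models are newer than those counted. It placed 32835 nuclear genes and all 54 members. An upstream neighbour was the nearest gene 5′ of the start on either strand. RPKM used the union of exons.

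The members, gene lists, kinds of role and tests were chosen with earlier results of these data known. Named genes are the 20 members highest in *fpa*, the 5 with the largest difference of log2(CPM + 0.1), members and genes next to each limit, tandem neighbours within 1000 bp of the 20, and called list genes or the one with the smallest p. Other named members, the neighbours called in *fpa* or *bdrs* and the sequences shown were chosen after their values were seen. Symbols that the annotation did not pair with their gene were left out of the lists.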

Additional observations from a re-analysis of the deposited data

How the results depend on the processing

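The set held 54 genes, and 35 when *fpa* had to reach 8 times WT or 25 when it had to reach 2 CPM. Leaving out single libraries gave 40 (without *fpa* replicate 1) to 64 genes (without *fpa* replicate 3), of which 40 and 51 were among the 54. Over all genes, edgeR called 264 higher in *fpa*, against 443 with DESeq2, 474 with the replicate block and 136 to 204 with a library left out, and 629 lower, against 340 to 600 with a library left out. Without the 3 libraries richest in ribosomal RNA, an alternative chosen after seeing the data, 6 upstream neighbours were lower and 2 higher. The replicate block left 9 upstream neighbours lower and 1 higher. It gave 1 downstream neighbour lower and 2 higher, as DESeq2 did. DESeq2 called 0 upstream neighbours higher. With a library left out, 5 to 8 upstream neighbours were lower and 0 to 2 higher, and 0 to 2 downstream neighbours were lower and 0 to 1 higher. Of the listed genes, 2 were higher in *fpa*, and 1 to 2 with a library left out. With the nearest protein-coding gene as upstream neighbour, 11 were lower and 1 higher. Among single genes, the log2 fold change of *AT1G06010* turned to -0.0033 without *fpa* replicate 3 (-0.0033 to 0.32 with a library left out) and to -0.003 without the libraries rich in ribosomal RNA. That of *AT5G03440* turned to 0.05 without WT replicate 3 and 0.13 without *fpa* replicate 1 (-0.25 to 0.13). The causes were not tested. At 11566600 counts, 1 read was worth 0.0865 CPM, which limits every low level.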

Other observations

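Without the condition on *bdrs* the rule gave 62 genes, of which 60 had a placed upstream neighbour. The neighbour was tandem for 71.7% of these, within 1000 bp for 70%, and at 5 CPM or more in WT for 51.7%. The same rule gave 58 genes for *bdrs*, 0 for *bdr1*, 2 for *bdr2* and 4 for *bdr3*.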
